A study of Homo sapiens with 6 samples.

Results

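The extracellular matrix genes examined here are 52 genes for collagen and laminin chains, the glycoproteins that link them, and the enzymes that hydroxylate and crosslink collagen. They were found by gene symbol among the 74852 genes of the deposited table, and each of the 52 matched 1 row. The cells were MDA-MB-231, an established line of triple-negative breast cancer with mesenchymal traits. They were transfected in 2 rounds either with pooled NEK2-directed siRNAs (si-NEK2, 3 libraries) or with non-targeting control siRNAs (si-CTRL, 3 libraries), and per the labels were harvested 24 h after the second round. NEK2 is a serine/threonine kinase of the centrosome and nucleus, and the comparison asks which matrix transcripts differ when it is depleted. All 6 libraries come from this 1 line, both groups went through the same transfection, and each group received 1 siRNA pool, so that an effect of the pool other than on NEK2 cannot be told apart from the effect of NEK2 loss.

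Matrix proteins are secreted and assembled outside the cell. Collagen chains are hydroxylated on proline and lysine in the endoplasmic reticulum, wind into triple helices and, after secretion, form fibrils, networks or filaments that lysyl oxidases crosslink. Laminins are trimers of an alpha, a beta and a gamma chain, and with type IV collagen, nidogen and perlecan they build the basement membrane on which epithelial cells rest. Because a trimer needs all of its chains, the balance between partner chains is of interest as well as the level of each.

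Values are normalized read counts, that is reads per gene divided by a size factor of each library. The libraries held between 52625492 and 87454509 reads on genes, a single read equalled 0.818 to 1.25 normalized counts depending on the library, and 3 reads, taken as the floor of detection, equalled 2.46 to 3.75. NEK2 itself measured 3702, 3323 and 3290 normalized counts in the 3 si-CTRL libraries and 284, 362 and 388 in the 3 si-NEK2 libraries, a log2 fold change (si-NEK2 minus si-CTRL) of -3.32 (SE 0.12, limma adjusted p = 1.86e-06). The first principal component, with 61.65% of the variance, separated the groups, and on the second, with 16.16%, library si-CTRL 1 had the highest score (38.9), followed by si-NEK2 3 (16.9), with the others between -26.1 and -4.12. All 8 markers fixed for MDA-MB-231, among them VIM, CD44, AXL and CAV1, were expressed. They summed to between 403058 and 469685 in si-CTRL and between 397917 and 414490 in si-NEK2. CD44 was called lower (log2 fold change -0.76) and CAV1 higher (0.69), and the others were not called. Of 11 luminal and epithelial markers, ESR1, PGR, CDH1 and EPCAM stayed at or under 15.2 normalized counts in every library, whereas FOXA1, KRT19, ERBB2 and GATA3 were expressed. That list summed to between 5189 and 6475 in si-CTRL and between 8147 and 8733 in si-NEK2, where FOXA1 was called higher (log2 fold change 1.16) and CLDN4 lower (-0.74). The KRT19 row runs over hg19 chr17:39679870-39942964, so reads of other genes in its counts are uncertain. A further list of 10 fibroblast markers summed to between 9753 and 11970 in si-CTRL and between 8116 and 8236 in si-NEK2. Most of that sum was THY1 and a row that PDGFRA shares with FIP1L1, so that its counts cannot be assigned to PDGFRA. PDGFRB (652 to 776 normalized counts over the 6 libraries), ACTA2 (166 to 321) and FAP (124 to 252) were expressed as well. PDPN and TCF21 did not exceed 34.2, LUM and POSTN did not exceed 3.61, and DPT was at 0 in all 6 libraries. THY1 itself was called lower in si-NEK2 (log2 fold change -0.78), and the part of any marker list in the values of the matrix genes was not tested. A transcript level in such bulk RNA cannot tell fewer expressing cells from less RNA per cell.

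A member was called when its p-value in the limma fit over all genes was at most 0.05 and its fold change at least 1.5. Of the 52 members, 48 entered the test, which needed an average of 10 or more normalized counts. In si-NEK2 cells 10 members were called lower, 20.8% of those tested, where 14.3% of all 18717 genes tested were called lower, and 3 were called higher, 6.25% of those tested, where 8.23% of all genes were. Every one of these 13 also had an adjusted p of at most 0.05. The share called higher lay near the background and the share called lower above it. The 6 values of a gene did not overlap between the groups, with si-NEK2 lower, for 17 members (35.4%, against 26.9% of all genes), and with si-NEK2 higher for 8 members (16.7%, against 28.2%). The median log2 fold change was -0.07 over the 48 members and 0.01 over all genes. Of the 35 members not called, 11 had an adjusted p of at most 0.05 with a fold change under 1.5. Such an adjusted p was common, with 24 of the 48 tested members and 8063 of all 18717 genes tested at or under 0.05.

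The set was a sizeable part of the transcriptome of this line. Its summed counts took 1.68%, 1.56% and 1.47% of the si-CTRL libraries and 1.31%, 1.25% and 1.33% of the si-NEK2 libraries. All 3 si-NEK2 shares were thus under all 3 si-CTRL shares. A share is set against the library total, and on that scale si-NEK2 values came out lower for genes at large. With equal library totals the median log2 fold change of all genes was -0.115 in place of 0.0119. That of the members was -0.20 in place of -0.07. Part of the gap in shares thus comes from the scale. The 5 members with the highest means made up between 53.55% and 57.3% of the sum in each library. The plot of log2 fold changes by role shows that the calls were spread over 7 of the 11 roles and that members of 1 role often went apart.

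**Figure D1:**
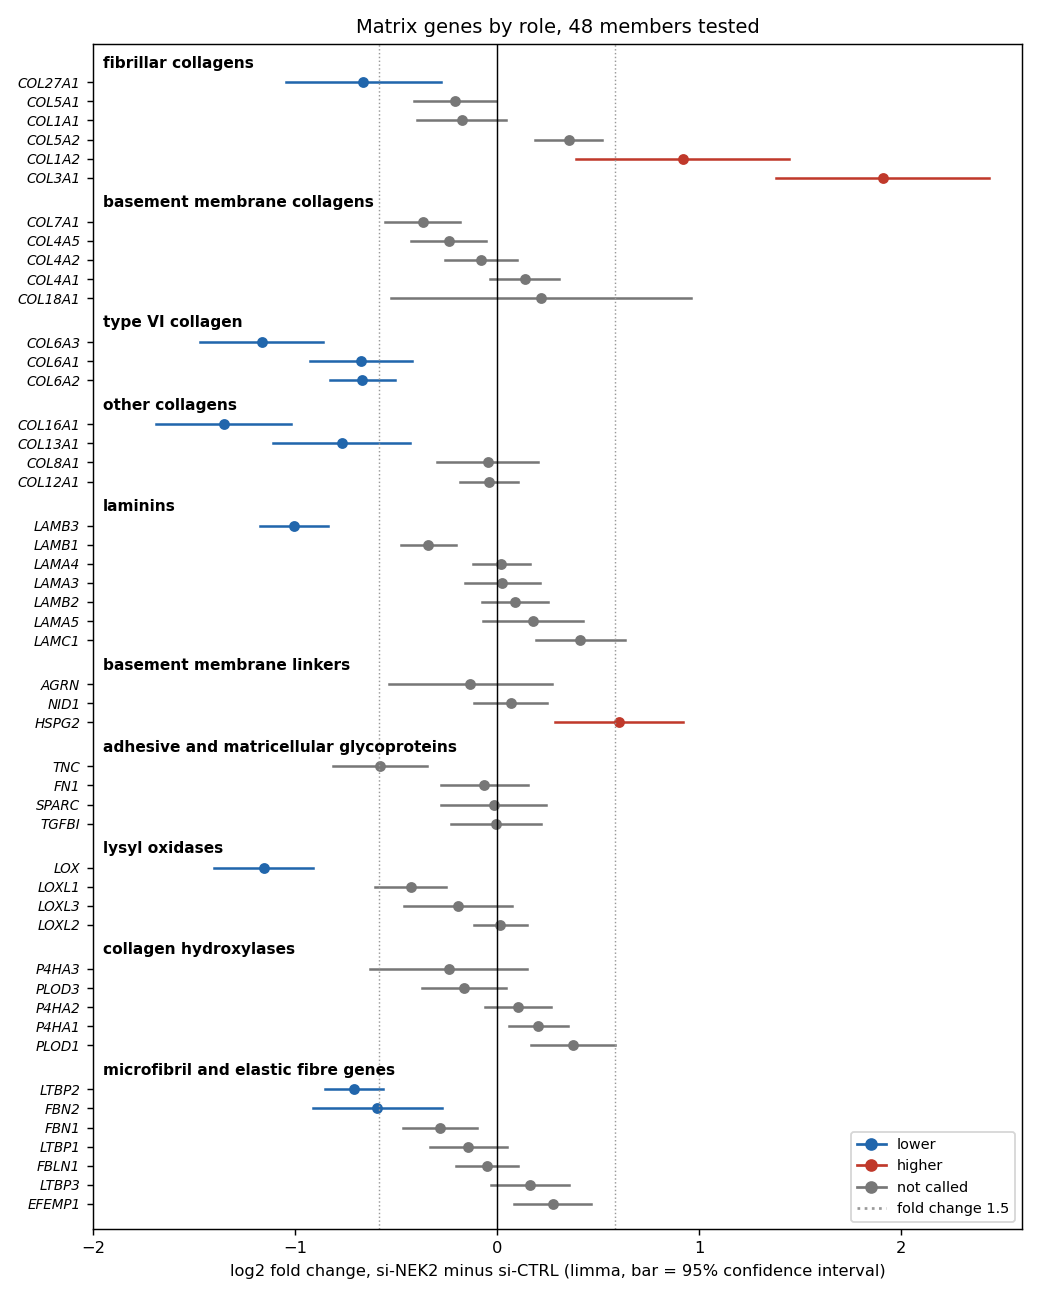
Log2 fold change (si-NEK2 minus si-CTRL, x axis) of the 48 tested members, grouped by role on the y axis. Points are limma estimates, bars are 95% confidence intervals, colours give the call and dotted lines mark a fold change of 1.5. All 3 type VI chains lie to the left at -0.67 or lower, while COL3A1 lies farthest to the right at 1.91.

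Type VI collagen was the role in which every member was called, all 3 of them lower. Type VI collagen forms beaded filaments close to the cell surface, and its classical trimer holds 1 chain each from COL6A1, COL6A2 and COL6A3. COL6A1 measured 54903, 41278 and 44681 normalized counts in si-CTRL and 32446, 28086 and 27393 in si-NEK2. COL6A2 measured 9392, 9104 and 9521 in si-CTRL and 6404, 5656 and 5625 in si-NEK2. COL6A3 measured 501, 653 and 701 in si-CTRL and 270, 285 and 262 in si-NEK2. For each chain the highest si-NEK2 library was below the lowest si-CTRL library, and for COL6A2 the control libraries lay close together. The log2 fold change was -0.67 (SE 0.11, limma adjusted p = 0.0015) for COL6A1 and -0.67 (SE 0.07, adjusted p = 0.000156) for COL6A2. It was -1.17 (SE 0.13, adjusted p = 0.000234) for COL6A3, which thus stood at 44.1% of its control mean. Without si-CTRL 1, the library highest in COL6A1, the log2 fold change of COL6A1 was -0.56 (adjusted p = 0.000222) and its fold change no longer reached 1.5. On a scale of normalized counts per kb of transcript, COL6A1 stood at 11079 in si-CTRL, COL6A2 at 2698 and COL6A3 at 57.5, so that COL6A3 was the scarce chain in both groups.

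COL6A1 (hg19 chr21:47401663-47424963) and COL6A2 (hg19 chr21:47518033-47552763) lie in the same orientation with a gap of 93069 bases, while COL6A3 is on chromosome 2. The ratio of COL6A1 to COL6A2 counts was 5.85, 4.53 and 4.69 in si-CTRL and 5.07, 4.97 and 4.87 in si-NEK2. The si-NEK2 ratios fell within the range of the si-CTRL ratios (exact permutation p = 1, two-sided), and the log2 change of the ratio was -0.01. The 250 bases upstream of the starts of COL6A2 and COL6A3, both called lower, are printed (RefSeq, GRCh38.p14). Those of COL6A1, which was also called lower, are not printed. Capitals mark matches to the 4 motifs searched on both strands, which were the AP-1 site (TGACTCA or TGAGTCA), the TEAD site (GGAATG), the CCAAT box (CCAAT) and the TATA box (TATAAA).

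COL6A2, chr21:46097862-46098111, plus strand: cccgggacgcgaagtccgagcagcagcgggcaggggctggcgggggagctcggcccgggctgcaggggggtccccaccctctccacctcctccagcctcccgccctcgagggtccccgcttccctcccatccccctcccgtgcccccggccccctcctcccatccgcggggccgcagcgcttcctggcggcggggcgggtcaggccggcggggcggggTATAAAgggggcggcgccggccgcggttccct

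COL6A3, chr2:237414165-237414414, minus strand: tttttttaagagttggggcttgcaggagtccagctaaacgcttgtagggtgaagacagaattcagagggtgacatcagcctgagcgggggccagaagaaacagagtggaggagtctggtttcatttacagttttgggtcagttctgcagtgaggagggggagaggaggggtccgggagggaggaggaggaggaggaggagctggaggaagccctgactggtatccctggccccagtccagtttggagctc

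The COL6A2 stretch held a TATA box between 26 and 32 bases before the start, a motif found in 10.7% of 35116 promoter entries of the same length. The COL6A3 stretch held none of the 4 motifs. A match of letters is a description of the sequence and not a site shown to be bound.

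Of the 6 fibrillar collagens, COL1A2 and COL3A1 were called higher, COL27A1 was called lower and the other three were not called. COL1A1, COL5A1 and COL5A2 were abundant, while COL1A2 and COL3A1, which with COL1A1 are typical of fibroblasts, were close to silent. Per kb of transcript COL1A1 stood at 23823 normalized counts in si-CTRL, the highest level of all members, whereas COL1A2 stood at 7.21 and COL3A1 at 6.27. Type I collagen is classically a trimer of 2 chains from COL1A1 and 1 from COL1A2, so in this line nearly all type I transcripts were of the first kind.

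COL3A1, the chain of type III collagen, measured 36.2, 24.2 and 43.7 normalized counts in si-CTRL and 124, 123 and 142 in si-NEK2. Its log2 fold change of 1.91 (SE 0.23, limma adjusted p = 0.000301) was the highest of the members, from a low base of 25 to 46 reads per control library. COL1A2 measured 32.5, 50.4 and 34.2 in si-CTRL and 86.7, 63.3 and 71.5 in si-NEK2. It rose by a log2 fold change of 0.92 (SE 0.23, adjusted p = 0.0121), and without si-NEK2 1, its highest library, the value was 0.80 (adjusted p = 0.0558). For both genes the groups did not overlap, although even after the rise COL1A2 reached 13.6 and COL3A1 23.4 normalized counts per kb. COL27A1, a fibrillar collagen of cartilage and other tissues, went the other way. It measured 8985, 5271 and 6128 in si-CTRL and 4014, 4050 and 4496 in si-NEK2, a log2 fold change of -0.66 (SE 0.17, adjusted p = 0.0123). The 3 si-NEK2 libraries lay close together and the spread came from the control side, where si-CTRL 1 was the highest. Without si-CTRL 1 the log2 fold change of COL27A1 was -0.44 (adjusted p = 0.00105), under the fold threshold.

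COL1A1 averaged 160257 ± 18683 (SD, n = 3) in si-CTRL and 141499 ± 10668 in si-NEK2, and these groups overlapped. Its log2 fold change of -0.18 had a 95% confidence interval from -0.39 to 0.04. Type V collagen, which regulates the diameter of type I fibrils, showed chains that went apart without either being called. COL5A1 had a log2 fold change of -0.21 (adjusted p = 0.0938), and COL5A2 one of 0.35 (SE 0.07, adjusted p = 0.00464), with every si-NEK2 library above every si-CTRL library. Under quantile normalization these values were -0.37 (adjusted p = 0.0202) for COL5A1 and 0.07 (adjusted p = 0.5) for COL5A2. The ratio of COL5A1 to COL5A2 counts was 0.489, 0.501 and 0.441 in si-CTRL and 0.354, 0.305 and 0.311 in si-NEK2, with no overlap. With 3 libraries against 3 the exact permutation test cannot give less than p = 0.1, which it gave here (adjusted over 5 ratios, 0.125). COL5A2 and COL3A1 lie tail to tail on chromosome 2 with 19168 bases between them, and both had higher values in all si-NEK2 libraries. That held for 28.2% of all genes tested. Other members within 1000000 bases of each other went either way. COL27A1 (-0.66) and TNC (-0.58) were both lower, while COL18A1 (0.22, not called) and COL6A1 (-0.67) differed in sign. A link between position and change was not tested.

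**Figure D2:**
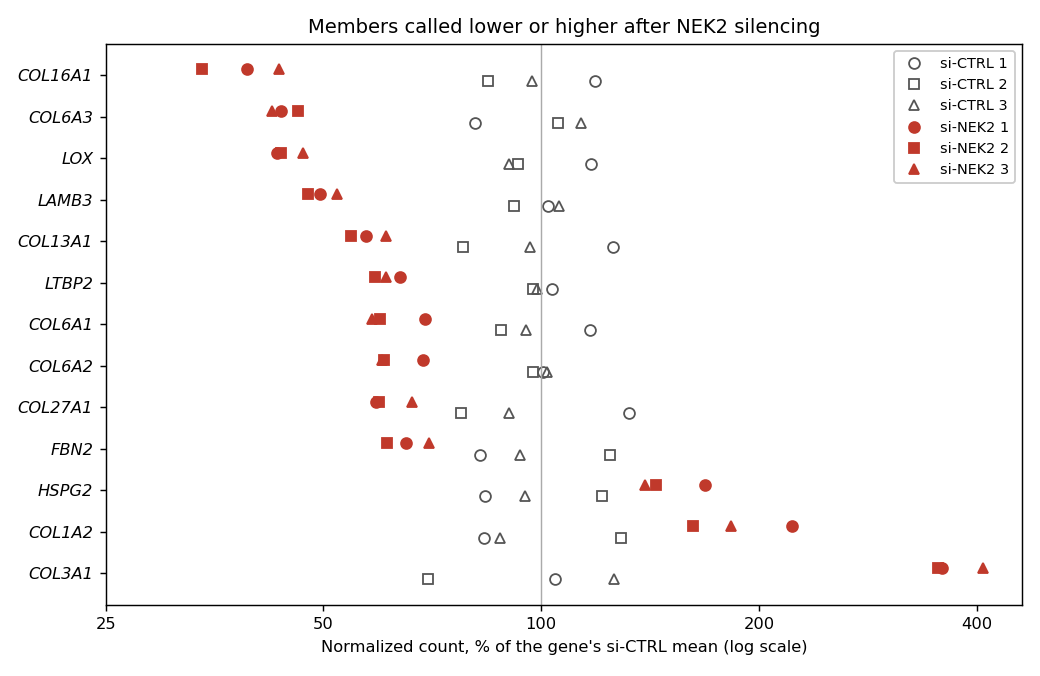
Normalized count of the 13 called members in each library as a percentage of the gene's si-CTRL mean (x axis, log scale); open grey symbols are si-CTRL and filled red symbols si-NEK2, with 1 symbol shape per replicate number. In each row the groups do not overlap, and si-CTRL 1 stands above the other control libraries for COL27A1, COL13A1, COL6A1, COL16A1, LTBP2 and LOX.

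Of the remaining collagens, COL16A1 and COL13A1 were called lower while COL8A1 and COL12A1 were near their control level. COL16A1 encodes a collagen of the fibril-associated type that decorates fibrils. It measured 741, 527 and 607 normalized counts in si-CTRL and 245, 212 and 271 in si-NEK2, and its log2 fold change of -1.35 (SE 0.15, limma adjusted p = 0.000181) was the lowest of all members. The row of TMEM234, a gene with a mean of 192 normalized counts, spans the COL16A1 locus, so shared reads there are uncertain. COL13A1, a transmembrane collagen found at cell adhesion sites, measured 8270, 5126 and 6350 in si-CTRL and 3766, 3592 and 4017 in si-NEK2. It fell by 0.77 on the log2 scale (SE 0.15, adjusted p = 0.00344), and remained called without each library in turn, with log2 fold changes from -0.94 to -0.59. COL8A1, a short-chain network collagen, had a log2 fold change of -0.05 with an interval from -0.30 to 0.20. COL12A1, another fibril-associated chain, had one of -0.04 with an interval from -0.18 to 0.10.

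None of the 5 basement membrane collagens was called by limma, edgeR or DESeq2, although 2 of them had a limma p under 0.05. COL4A1 and COL4A2, whose chains make up the common type IV network, had the groups overlapping. COL4A1, the highest of the 5, measured 25350, 22517 and 22038 in si-CTRL and 25365, 24218 and 27163 in si-NEK2, a log2 fold change of 0.14 with an interval from -0.04 to 0.31. COL4A2 averaged 3717 ± 192 in si-CTRL and 3522 ± 265 in si-NEK2, a log2 fold change of -0.08 with an interval from -0.26 to 0.10. The network trimer holds 2 COL4A1 chains and 1 COL4A2 chain, and the count ratio of COL4A1 to COL4A2 was 6.45, 6.32 and 6.03 in si-CTRL and 6.74, 7.48 and 7.62 in si-NEK2. The ratios did not overlap, with the exact permutation test at its smallest p of 0.1 (adjusted over 5 ratios, 0.125).

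COL4A1 (hg19 chr13:110801305-110959504) and COL4A2 (hg19 chr13:110959631-111165374) are read in opposite directions with 126 bases between their starts. That shared stretch is printed because each gene of the pair uses it as its upstream sequence and neither was called (RefSeq, GRCh38.p14, in the direction of COL4A2). Capitals mark a CCAAT box, a motif present in 32% of all promoter entries. Those entries were 250 bases long and this stretch is 126, so the share is not for a like length.

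COL4A1 to COL4A2, chr13:110307158-110307283, plus strand: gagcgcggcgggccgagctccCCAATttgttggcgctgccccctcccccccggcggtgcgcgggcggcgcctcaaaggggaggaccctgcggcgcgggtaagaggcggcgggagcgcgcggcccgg

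COL4A5 and COL7A1 were lower in all si-NEK2 libraries than in all si-CTRL libraries but under the fold threshold. COL4A5, a chain of the specialised type IV network of glomerular and other basement membranes, had a log2 fold change of -0.24 (limma adjusted p = 0.0422), which without si-NEK2 1 was -0.19 (adjusted p = 0.155). COL7A1, the anchoring fibril collagen, had one of -0.37 (adjusted p = 0.00672). COL18A1, the precursor of endostatin, measured 960, 875 and 1203 in si-CTRL and 1645, 1549 and 623 in si-NEK2. Library si-NEK2 3 was thus the lowest of all 6 and the other si-NEK2 libraries were the highest. The log2 fold change of COL18A1 was 0.22 with an interval from -0.53 to 0.96, and without si-NEK2 3 it was 0.67 (adjusted p = 0.00802). AGRN and LAMA5 were likewise at their lowest si-NEK2 value in that library, with 9542 against 15841 and 13892 for AGRN and 2138 against 2894 and 2540 for LAMA5. HSPG2 was also lowest there, by a smaller margin (1378 against 1671 and 1427). Other basement membrane genes, COL4A1, COL7A1, LAMB1, LAMC1 and NID1, had their highest si-NEK2 value in that library. NID1 measured 31102 there against 30054 and 29328, and LAMC1 25265 against 23525 and 23387. Without si-NEK2 3 the log2 fold change of LAMA5 was 0.29 (adjusted p = 0.0466) in place of 0.18 (adjusted p = 0.226). The row of SLC19A1 overlaps that of COL18A1, which leaves its counts uncertain.

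Among the laminins, LAMB3 was called lower and the other 6 chains were not called. LAMB3 encodes the beta-3 chain of laminin-332, the laminin of epithelial anchoring contacts, and LAMA3 encodes its alpha chain. LAMB3 measured 55680, 49967 and 57608 normalized counts in si-CTRL and 26887, 25898 and 28446 in si-NEK2. The si-NEK2 mean was 49.8% of the control mean, with a log2 fold change of -1.01 (SE 0.07, limma adjusted p = 2.67e-05). Over the libraries left out in turn this value ranged from -1.07 to -0.96. LAMA3 measured 987, 943 and 884 in si-CTRL and 911, 988 and 968 in si-NEK2. Its groups overlapped, and its log2 fold change of 0.03 had an interval from -0.16 to 0.21. The beta chain thus fell while no difference was detected for the alpha chain.

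The ratio of LAMB3 to LAMA3 counts was 56.4, 53.0 and 65.2 in si-CTRL and 29.5, 26.2 and 29.4 in si-NEK2. The ratios stood far apart for 3 libraries against 3, for which p = 0.1 (exact permutation, adjusted over 5 ratios 0.125) is the smallest the test can give. Per kb of transcript, LAMB3 stood at 12641 normalized counts and LAMA3 at 88.0 in si-CTRL, so the alpha chain was scarce in both groups and the beta chain remained in large excess in si-NEK2, with 6290 against 89.6.

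**Figure D3:**
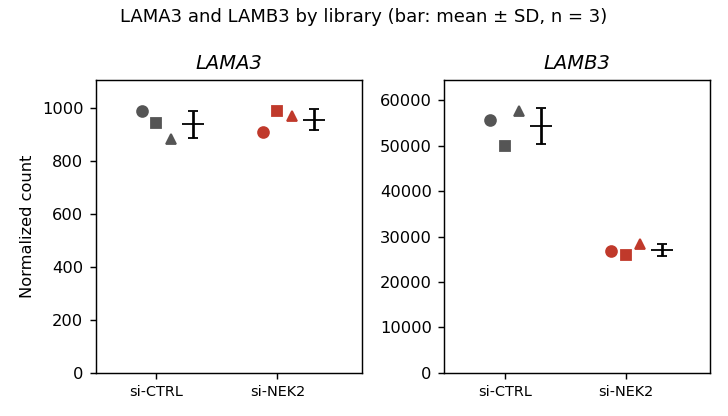
Normalized counts of LAMA3 and LAMB3, chains of laminin-332, in each library (y axis, from 0, a separate scale per gene); symbols are libraries and bars mean ± SD (n = 3). LAMB3 goes from a mean of 54418 to 27077, while the LAMA3 values of both groups lie between 884 and 988.

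The upstream sequences of LAMB3 and LAMA3 are printed because they were the only promoters, among those of the 41 members with a RefSeq entry, that held an AP-1 site. These were 2 of the 41 members, a share near that of all promoter entries, of which 4.2% held the site. A member counted if any of its entries held the site, and LAMA3 was not called. RefSeq gives 3 starts for LAMB3, and the stretch shown is that with the site. Capitals mark the AP-1 sites and, in LAMB3, a CCAAT box (GRCh38.p14).

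LAMB3, chr1:209651375-209651624, minus strand: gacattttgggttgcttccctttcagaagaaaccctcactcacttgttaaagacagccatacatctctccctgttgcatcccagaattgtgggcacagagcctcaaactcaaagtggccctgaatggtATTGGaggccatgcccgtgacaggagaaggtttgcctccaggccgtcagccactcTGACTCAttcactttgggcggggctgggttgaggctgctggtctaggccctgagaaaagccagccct

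LAMA3, chr18:23872770-23873019, plus strand: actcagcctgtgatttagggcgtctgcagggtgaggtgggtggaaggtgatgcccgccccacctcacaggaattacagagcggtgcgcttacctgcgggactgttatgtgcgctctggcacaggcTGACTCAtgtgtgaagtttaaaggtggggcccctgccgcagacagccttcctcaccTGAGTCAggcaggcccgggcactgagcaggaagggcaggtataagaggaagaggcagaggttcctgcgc

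The LAMB3 stretch held 1 AP-1 site, between 60 and 67 bases before the start. The LAMA3 stretch held 2, the nearer between 62 and 69 bases before the start of its only entry. Whether these starts belong to the transcripts used for the levels per kb was not tested. The TEAD motif was found for COL12A1, FBN1, LOXL3 and SPARC (11.9% of all entries), of which none was called.

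LAMB1 and LAMC1, chains of the widespread laminins of basement membranes, differed in opposite directions by less than the fold threshold. LAMB1 averaged 25164 ± 156 in si-CTRL and 19901 ± 931 in si-NEK2, a log2 fold change of -0.34 (SE 0.06, limma adjusted p = 0.00212). LAMC1 averaged 18189 ± 2584 in si-CTRL and 24059 ± 1047 in si-NEK2, a log2 fold change of 0.41 (SE 0.10, adjusted p = 0.00875). Neither gene's groups overlapped, and under quantile normalization the value of LAMC1 was 0.26 (adjusted p = 0.063). Their count ratio was 1.20, 1.51 and 1.49 in si-CTRL and 0.814, 0.839 and 0.829 in si-NEK2 (exact permutation p = 0.1, adjusted over 5 ratios 0.125). These ratios are not corrected for length. Per kb of transcript, LAMB1 stood above LAMC1 in both groups, at 4364 against 2306 normalized counts in si-CTRL and 3451 against 3050 in si-NEK2. For LAMA4, LAMA5 and LAMB2 the groups overlapped. Their log2 fold changes were 0.02, 0.18 and 0.09, and the interval of LAMA4, from -0.12 to 0.16, was the narrowest of these.

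**Figure D4:**
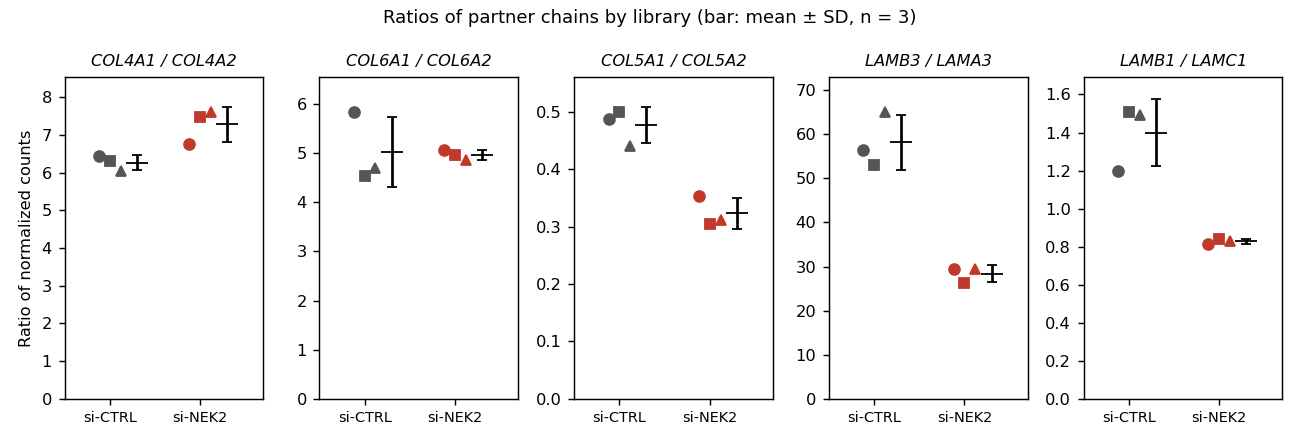
Ratio of the normalized counts of partner chains in each library (y axes, from 0, a separate scale per pair, not corrected for transcript length); symbols are libraries and bars mean ± SD (n = 3). The COL6A1 to COL6A2 ratio overlaps between groups, whereas the LAMB3 to LAMA3 ratio goes from 58.2 to 28.4 and the LAMB1 to LAMC1 ratio from between 1.20 and 1.51 to between 0.814 and 0.839.

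Of the genes that link laminin and collagen networks, HSPG2 was called higher. HSPG2 encodes perlecan, a large heparan sulfate proteoglycan. It measured 827, 1204 and 942 normalized counts in si-CTRL and 1671, 1427 and 1378 in si-NEK2, with a log2 fold change of 0.60 (SE 0.14, limma adjusted p = 0.00803). The groups did not overlap, but the value lay just over the fold threshold of 0.585 on this scale. It fell under the threshold with edgeR (0.579), with DESeq2 (0.578), with upper quartile scaling (0.54), with equal library totals (0.47), and without si-CTRL 1 (0.48), si-CTRL 3 (0.57) or si-NEK2 1 (0.52). NID1, the nidogen that bridges laminin and type IV collagen, averaged 28856 ± 2901 in si-CTRL and 30162 ± 892 in si-NEK2, with a log2 fold change of 0.07 and an interval from -0.11 to 0.25. AGRN, the heparan sulfate proteoglycan agrin, had a log2 fold change of -0.13 with an interval from -0.53 to 0.27, and one of 0.08 once si-NEK2 3 was left out.

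The adhesive and matricellular glycoproteins were among the most abundant members, and none of the 4 was called by limma, although 1 of them, TNC, had a limma p under 0.05 and was called by edgeR and DESeq2. FN1, which encodes fibronectin, measured 184791, 171068 and 146763 in si-CTRL and 155162, 153134 and 171006 in si-NEK2. Its log2 fold change of -0.06 had an interval from -0.28 to 0.15. SPARC, a collagen-binding matricellular protein, and TGFBI, an adhesion protein induced by TGF-beta, had log2 fold changes of -0.02 (interval -0.28 to 0.24) and 0.00 (interval -0.23 to 0.22). For FN1, SPARC and TGFBI the groups overlapped. TNC, which encodes the tumour matrix glycoprotein tenascin-C, stood apart from these. It measured 110519, 86505 and 91338 in si-CTRL and 62124, 59935 and 70162 in si-NEK2, with every si-NEK2 library below every control. Its log2 fold change of -0.58 (SE 0.10, limma adjusted p = 0.0021) lay just short of the fold threshold. It passed with edgeR and DESeq2 (both -0.60), with upper quartile scaling (-0.65), equal library totals (-0.71) and quantile normalization (-0.76). It also passed without si-CTRL 2 (-0.65), si-CTRL 3 (-0.61) or si-NEK2 3 (-0.65).

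**Figure D5:**
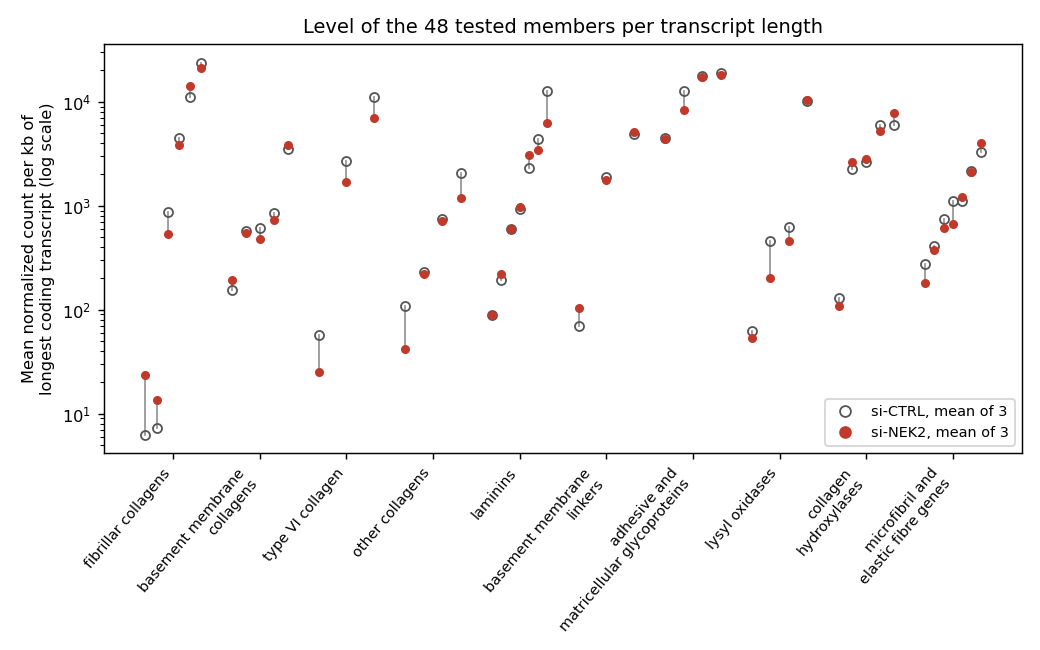
Mean normalized count per kb of the longest coding transcript (y axis, log scale) of the 48 tested members by role (x axis); open circles are si-CTRL and filled circles si-NEK2 means of 3 libraries, joined by a line for each gene. COL1A1 is the highest at 23823 and COL3A1 the lowest at 6.27 in si-CTRL.

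LOX was the lysyl oxidase called lower. Lysyl oxidases oxidise lysine residues of collagen and elastin, the step that starts the covalent crosslinks of fibrils. LOX measured 2730, 2162 and 2100 normalized counts in si-CTRL and 1006, 1019 and 1093 in si-NEK2. The si-NEK2 mean was 44.6% of the control mean, with a log2 fold change of -1.16 (SE 0.11, limma adjusted p = 7.9e-05). LOXL2 was the most abundant member of the family, at 10181 normalized counts per kb in si-CTRL against 624 for LOXL1 and 457 for LOX. Its groups overlapped, and its log2 fold change of 0.02 had an interval from -0.12 to 0.15. LOXL1 averaged 1466 in si-CTRL and 1089 in si-NEK2, a log2 fold change of -0.43 (adjusted p = 0.00244) under the fold threshold. The row of its antisense gene LOXL1-AS1 overlaps it. LOXL3 had a log2 fold change of -0.19 (adjusted p = 0.222), and its row overlaps those of HTRA2 and DOK1. LOXL4 was at 0 in all 6 libraries.

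None of the 5 collagen hydroxylases was called by limma, edgeR or DESeq2, although 2 of them had a limma p under 0.05. PLOD1, a lysyl hydroxylase, measured 20296, 16105 and 16444 in si-CTRL and 22761, 22124 and 23319 in si-NEK2, a log2 fold change of 0.38 (SE 0.09, limma adjusted p = 0.00999) with groups that did not overlap. P4HA1, a catalytic subunit of prolyl 4-hydroxylase, also had every si-NEK2 library above every control, with a log2 fold change of 0.20 (SE 0.06, adjusted p = 0.0313). With equal library totals P4HA1 was at 0.08 (adjusted p = 0.372), and under quantile normalization PLOD1 was at 0.21 (adjusted p = 0.104). P4HA2 and P4HA3, the other catalytic subunits, had log2 fold changes of 0.10 and -0.24, and PLOD3 one of -0.17, all with overlapping groups. The rows of PLOD3 and P4HA3 overlap those of ZNHIT1 and PPME1. PLOD2, the lysyl hydroxylase of collagen telopeptides and not one of the 52, had a log2 fold change of -0.01 with an interval from -0.18 to 0.16.

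Of the microfibril and elastic fibre genes, LTBP2 and FBN2 were called lower. LTBP2 encodes a fibrillin-like protein of microfibrils that, unlike its relatives, does not bind latent TGF-beta. It measured 9756, 9183 and 9300 normalized counts in si-CTRL and 6000, 5553 and 5736 in si-NEK2. Both groups were tight and far apart, with a log2 fold change of -0.71 (SE 0.06, limma adjusted p = 6.3e-05). FBN2, the fibrillin of early development, measured 2516, 3811 and 2857 in si-CTRL and 1988, 1874 and 2142 in si-NEK2. Its log2 fold change of -0.59 (SE 0.14, adjusted p = 0.00871) lay just past the threshold. It was -0.42 without si-CTRL 2, the highest library, and -0.55 without si-NEK2 2, both short of the threshold.

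FBN1, the main fibrillin, had a log2 fold change of -0.28 (limma adjusted p = 0.0199), below the fold threshold, with groups that did not overlap. EFEMP1, which encodes fibulin-3, had one of 0.28 (adjusted p = 0.0265), also without overlap. With quantile normalization EFEMP1 was at 0.14 (adjusted p = 0.196), and without si-NEK2 1 FBN1 was at -0.24 (adjusted p = 0.0828). FBLN1, LTBP1 and LTBP3 had overlapping groups and log2 fold changes of -0.05, -0.14 and 0.16. LTBP1 and LTBP3 bind latent TGF-beta in the matrix, and the LTBP3 row overlaps that of NEAT1, which leaves its value uncertain. The 3 proteoglycans of interstitial matrix were not detected above the floor. DCN held 2, 0 and 0 reads in si-CTRL and 2, 2 and 2 in si-NEK2, BGN held 2 reads in 1 si-NEK2 library and none elsewhere, and VCAN held no read.

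A list of 27 other genes for folding, secreting and processing collagen gave 5 called lower and 2 called higher of 26 tested, that is 19.2% and 7.69% against 14.3% and 8.23% of all genes, with a median log2 fold change of -0.07. PCOLCE, which speeds removal of the procollagen C-propeptide, fell from 822 ± 141 to 384 ± 11.4 normalized counts, a log2 fold change of -1.08 (limma adjusted p = 0.000243). SEC23A, a coat protein of the vesicles that carry procollagen out of the endoplasmic reticulum, rose from 12506 ± 314 to 26008 ± 854, a log2 fold change of 1.06 (adjusted p = 7.33e-06).

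The list of 32 further genes, collagen and laminin chains and the nidogen NID2, had 16 members that could be tested. Of these 6 were called lower and 3 higher, 37.5% and 18.8% against 14.3% and 8.23% of all genes, with a median of -0.41. NID2, which is not a chain, was among those called higher. COL4A6 fell from 252 ± 41.5 to 118 ± 13.3 (log2 fold change -1.09, limma adjusted p = 0.000873). COL4A6 encodes the chain that pairs with that of COL4A5. COL5A3, the third type V chain, rose from 1561 ± 35.4 to 4072 ± 186 (log2 fold change 1.38, adjusted p = 4.58e-06). COL17A1, the hemidesmosomal collagen, was named after its values were seen. It fell from 720 ± 84.3 to 145 ± 18.8 (log2 fold change -2.30, adjusted p = 1.02e-05).

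Of 57 further matrix glycoproteins and proteoglycans, 38 were tested, 8 were called lower and 5 higher, 21.1% and 13.2% against 14.3% and 8.23% of all genes, with a median of 0.06. THBS2, the matricellular thrombospondin-2, fell from 907 ± 57.6 to 240 ± 26.2 (log2 fold change -1.92, limma adjusted p = 8.41e-06). NTN1, a laminin-related netrin, fell by 1.19 on the log2 scale (adjusted p = 2.8e-05). FRAS1, a basement membrane protein of the Fraser complex, rose from 1535 ± 255 to 3206 ± 132 (log2 fold change 1.07, adjusted p = 0.000144). In all 3 lists genes thus went in both directions, as among the 52.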

How the data were processed

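RNA of MDA-MB-231 cells was sequenced from poly(A) stranded libraries (TruSeq Stranded mRNA). Per the labels, reads were aligned to hg19 with STAR 2.4.0, and FastQC, Picard, SAMtools and DESeq2 were used, with genes as in the FAST DB annotation. The deposited values are a signal per gene, counts that the authors divided by DESeq2 size factors. In each library 100% of values were whole multiples of the smallest value (tolerance 0.01), so whole reads were recovered for alternative count tests. The study's methods and the labels differ on the time of harvest, and the time of the labels is used here. The strand setting of counting is not given in the sources used here, so rows that overlap another gene are uncertain.

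From these values, log2(value + 1) was tested with limma 3.58.1 (R 4.3.3, lmFit and eBayes with trend) over the 18717 genes with a mean of at least 10, without covariates, with Benjamini-Hochberg adjustment. Fold changes are on this log2 scale, which understates changes of low genes. A call needed both p at or under 0.05 and a change of 1.5-fold or more. The script was tested on simulated data. Nothing says that the 3 libraries of a group came from separate cultures, so p-values measure the spread between these samples, which may be technical. Chain ratios were tested with exact permutation tests (scipy 1.17.1). Depth limits low genes, since 3 reads were the floor. Levels per kb used the longest coding transcript of GENCODE 29, and promoters came from RefSeq (GRCh38.p14), with entries for 41 of 52 members. No coordinates were converted between builds.

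The members and lists were chosen with earlier results of these data known. All 52 are named. Values per library are given for called members with a mean of at least 50 and for the highest member of each role without one. From the other lists, called genes averaging 500 or more and changed 2-fold or more are named, at most 4 per list, with PLOD2, COL4A6 and NEK2. NID2 is named only to say what its list holds. COL17A1, with a lower mean, was added after its values were seen, and some genes are not reported here. Alternatives were other pseudocounts, filters, scalings and thresholds, a fit without trend, a replicate block, edgeR 4.0.16, DESeq2 1.42.0, and each library left out.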

Additional observations from a re-analysis of the deposited data

How the results depend on the processing

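All 10 members called lower were also called with the other pseudocounts (0.1 and 5), filters and scalings, with no trend, with edgeR and DESeq2, and when the adjusted p replaced the p. Asking for a 2-fold change left 4 lower and 1 higher. Leaving out 1 library gave 8 to 11 lower, the fewest without si-CTRL 1, and 2 to 4 higher. Same-numbered libraries showed no sign of deviating together (correlations -0.09, 0.05 and -0.15). With 3 libraries per group these values cannot decide whether same-numbered libraries were handled together. A fit with a replicate block gave 10 lower and 3 higher. Of 58 genes, 40 kept their direction and call under all 17 alternatives. Equal library totals moved the median of all genes from 0.01 to -0.12 and that of the members from -0.07 to -0.20.

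The sign turned for the genes below, none of them called, and the cause was not tested. Upper quartile scaling gave LAMA3 -0.039, LAMA4 -0.046 and LOXL2 -0.050. Equal totals gave LAMA3 -0.101, LAMA4 -0.108, LAMB2 -0.040, NID1 -0.060, LOXL2 -0.113 and P4HA2 -0.024. Quantile normalization gave LAMA4 -0.062, NID1 -0.065, LOXL2 -0.137 and P4HA2 -0.019. Without 1 library the log2 fold change ranged from -0.030 to 0.670 for COL18A1, -0.138 to 0.078 for COL8A1, -0.015 to 0.064 for LAMA3, -0.001 to 0.047 for LAMA4, -0.285 to 0.080 for AGRN, -0.156 to 0.010 for FN1, -0.094 to 0.126 for SPARC, -0.070 to 0.104 for TGFBI, -0.002 to 0.043 for LOXL2 and -0.073 to 0.038 for PLOD2. The log2 change of the COL6A1 to COL6A2 ratio ranged from -0.077 to 0.107.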
